A study of Mus musculus with 4 samples.

Results

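Nodal, Tdgf1, Lefty1 and Lefty2 encode the ligand, the co-receptor and both dedicated inhibitors of Nodal signalling. They were chosen as the 4 features with these symbols among the 40999 listed in the deposited tables. The rule uses the symbols only, but the set was chosen with earlier results of these data known. The genes were read in total RNA of gonads that had been dissected from C57BL/6J mouse embryos on 4 successive days, from E11.5 to E14.5. Each embryonic day was 1 pool of gonads of both sexes from more than 1 litter and gave 1 library, so the data hold no replicate and XX and XY gonads cannot be told apart. The mesonephros was left on the genital ridge at E11.5 and dissected away on the later days. No group carried a transgene or a treatment.

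Nodal is a secreted ligand of the TGF-β family. It binds a receptor complex of activin type I and type II receptors that needs the EGF-CFC protein encoded by Tdgf1 (also called Cripto), and the signal reaches the nucleus through SMAD2, SMAD3 and SMAD4, often with the DNA-binding factor FOXH1. Nodal, Lefty1 and Lefty2 are themselves targets of the pathway, so that the ligand raises its own transcription and that of its LEFTY inhibitors, which bind the ligand and the co-receptor. In the fetal gonad, Nodal signalling is known from XY germ cells, where it is active for a short period around the start of sex-specific differentiation and is linked with the pluripotency genes of these cells.

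Counts per library summed to 25593453 at E12.5 and to between 31266481 and 31752562 in the other libraries. Here 3 counts, the limit that a count of 0 allows, are 0.0945 to 0.117 CPM (counts per 1000000 counts of the library) by total counts. Of the 40999 features, 20114 passed the filter on low counts, and all 4 genes were among them. Levels across libraries were scaled by TMM, a normalisation that sets the bulk of the genes equal, and fold changes carry an exact 95% counting interval, which covers counting error only and not the spread between embryos or pools. With 1 library per day no test between days was possible. A gene was therefore called higher or lower where it differed at least 2-fold and its counting interval excluded no change. The E14.5 library stood apart, with a TMM factor of 0.597 against 1.10 to 1.25 in the others. Without 48 rRNA and most abundant features, it kept 13183642 counts, against 21544277 to 26924409 in the others, so fewer counts were left for the other genes. The levels given below are CPM of the TMM-scaled library size. On that scale 3 counts are a higher value at E14.5 than by total counts, and a lower one in the others. Scaled by total counts instead, the median of all genes moved by -1.06 on the log2 scale from E13.5 to E14.5, and by 0.16 from E11.5 to E12.5. None of 15 housekeeping genes was called in any comparison.

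Several gene lists showed what the pools held. Genes of both gonadal sexes were present in every library, such as Amh of Sertoli cells with 45 to 10299 counts and Foxl2 of pregranulosa cells with 191 to 1092. All 8 pan germ cell genes were called higher at E12.5 than at E11.5, beside 8.10% of all genes, and their median change was 3.48 on the log2 scale. Their summed level was 18.4 CPM at E11.5 and 309 to 419 CPM on the later days. The list of mesonephric and nephric genes had 4 of 6 members called lower in the same comparison, beside 8.23% of all genes, among them Pax2, a regulator of the nephric duct, which had 1531 counts at E11.5 and 60 at E12.5. The summed level of this list was 122 CPM at E11.5 and 17.2 to 22.0 CPM on the later days. None of the 4 Y-linked genes was called between any days, and their summed level was 152, 175, 154 and 165 CPM from E11.5 to E14.5. Xist, of X inactivation, was not called either, but it varied more, with 912, 570, 927 and 615 CPM. The share of XX and XY gonads in each pool was not tested. In pooled tissue a gene that is higher in more cells and a gene that is higher per cell cannot be told apart. The part of the mesonephros and of the number of germ cells in the values at E11.5 was not tested.

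Nodal lies on the forward strand at chr10:61417972-61425337 of mm10, with 3 exons. It had 17, 136, 115 and 33 counts from E11.5 to E14.5, which were 0.496, 4.33, 2.91 and 1.75 CPM after TMM scaling. The ligand was thus lowest in the E11.5 library and highest in the E12.5 library. The intervals at E13.5 (2.40 to 3.49 CPM) and E14.5 (1.21 to 2.46 CPM) overlapped slightly. Both lay above the interval at E11.5 (0.289 to 0.794 CPM) and below that at E12.5 (3.64 to 5.13 CPM).

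Tdgf1, on the reverse strand at chr9:110939608-110946158, had the fewest counts of the 4 genes in every library except E11.5. It had 15, 54, 30 and 5 counts from E11.5 to E14.5, or 0.438, 1.72, 0.758 and 0.266 CPM. The co-receptor was highest at E12.5, where its interval of 1.29 to 2.25 CPM lay above those of the other days. The E11.5 interval (0.245 to 0.722 CPM) overlapped both the E13.5 interval (0.511 to 1.08 CPM) and the E14.5 interval (0.0862 to 0.620 CPM), so the order among these days was not resolved at this depth except that E14.5 was lower than E13.5 by the interval of their difference.

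The inhibitor genes are neighbours on chromosome 1. Lefty2 lies at chr1:180893119-180899103 and Lefty1 at chr1:180935039-180938401, both on the forward strand and 35.9 kb apart. Lefty1 had 14, 228, 354 and 107 counts from E11.5 to E14.5, or 0.409, 7.27, 8.94 and 5.68 CPM. It was the one gene of the 4 with its highest level at E13.5, although the intervals at E12.5 (6.35 to 8.27 CPM) and E13.5 (8.04 to 9.93 CPM) overlapped. Lefty2 had 43, 824, 641 and 281 counts, or 1.25, 26.3, 16.2 and 14.9 CPM. This inhibitor was highest at E12.5 (24.5 to 28.1 CPM), and the intervals at E13.5 (15.0 to 17.5 CPM) and E14.5 (13.2 to 16.8 CPM) overlapped.

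**Figure D1:**
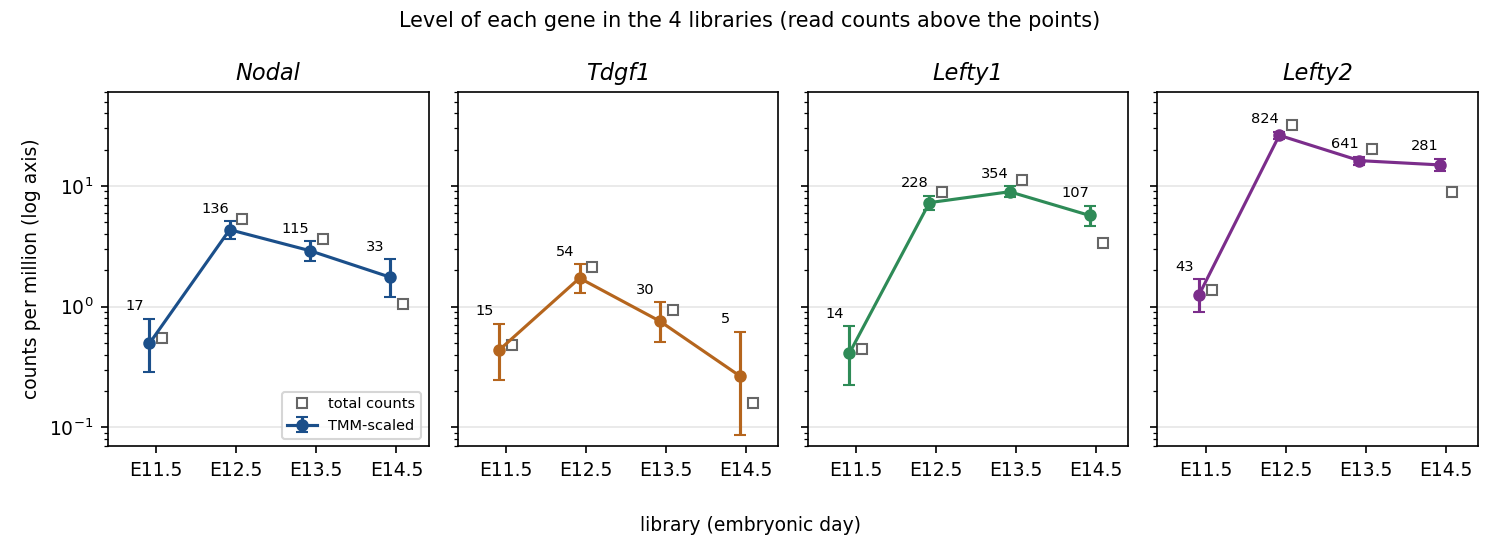
Levels in CPM of Nodal, Tdgf1, Lefty1 and Lefty2 (log axis) in the 4 libraries, E11.5 to E14.5. Filled circles are TMM-scaled levels with 95% counting intervals, open squares are the same counts scaled by total counts, and the numbers are read counts. Nodal, Lefty1 and Lefty2 are lowest at E11.5. The lowest point of Tdgf1 is at E14.5, where its interval overlaps that at E11.5. The open squares fall below the circles at E14.5 only.

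Lefty1 and Lefty2 arose as copies of one gene, and near-identical stretches can make reads hard to assign to one of them. Their coding sequences have the same length of 1104 bases without the stop codon and were identical at 91.8% of positions. The longest identical run was 140 bases and crosses from the second to the third exon. Among all stretches of 75 bases, 11.2% of those in the Lefty1 transcript were found whole in Lefty2 and 7.21% of those in Lefty2 were found whole in Lefty1, whereas no stretch of 150 bases was shared. How reads that match both genes were counted is not given in the sources used here, so part of the counts of each gene may belong to the other. The following 60 bases of exon 1, at coding positions 34 to 93, are shown because they differ most and tell the genes apart. Capitals mark the 18 positions that differ, in GENCODE M21 transcripts (GRCm38, the same assembly as mm10), forward strand.
Lefty1, chr1:180935143-180935202: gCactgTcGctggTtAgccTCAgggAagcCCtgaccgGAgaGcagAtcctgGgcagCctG
Lefty2, chr1:180893217-180893276: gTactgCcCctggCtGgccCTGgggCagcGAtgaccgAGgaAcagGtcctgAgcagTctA

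To compare the genes with each other within a library, the TPM were used, which are counts per exon length set to the same sum in every library. At E11.5 Lefty2 had 0.787 TPM, Lefty1 0.393, Nodal 0.366 and Tdgf1 0.351, and the intervals of neighbours in this order overlapped. From E12.5 on the order was Lefty2, Lefty1, Nodal and Tdgf1 in every library. At E12.5 these were 20.1, 8.52, 3.89 and 1.68 TPM. At E13.5 they were 13.54, 11.48, 2.86 and 0.810 TPM, and the intervals of Lefty2 (12.51 to 14.6 TPM) and Lefty1 (10.3 to 12.7 TPM) overlapped. At E14.5 they were 4.06, 2.37, 0.561 and 0.0924 TPM, with no overlap between neighbours. The inhibitor transcripts were thus the most abundant of the set from E12.5 on. At E11.5 Lefty2 over Nodal was already 2.15 (1.20 to 4.02), whereas Lefty1 over Nodal was 1.08 (0.491 to 2.32). The summed TPM of Lefty1 and Lefty2 was 3.23, 7.34, 8.76 and 11.48 times that of Nodal from E11.5 to E14.5.

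Ratios between genes of 1 library do not depend on how libraries are scaled. Per exon length, Lefty2 over Lefty1 was 2.001 (1.07 to 3.96) in the E11.5 library, 2.35 (2.03 to 2.74) in the E12.5 library, 1.18 (1.03 to 1.35) in the E13.5 library and 1.71 (1.36 to 2.16) in the E14.5 library. The Lefty genes were closest to each other at E13.5. From E12.5 to E13.5 Lefty1 changed by 0.997 on the log2 scale relative to Lefty2 (0.71 to 1.29), and from E13.5 to E14.5 by -0.54 (-0.92 to -0.16). Both intervals excluded an equal change of the inhibitors. Nodal over Tdgf1, the ligand per co-receptor transcript, was 1.04 (0.490 to 2.24), 2.32 (1.68 to 3.24), 3.53 (2.34 to 5.46) and 6.07 (2.36 to 19.9) in the same order of libraries. The intervals of neighbouring days overlapped for this ratio, and the interval of the difference between Nodal and Tdgf1 included 0 in each of the 3 steps.

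**Figure D2:**
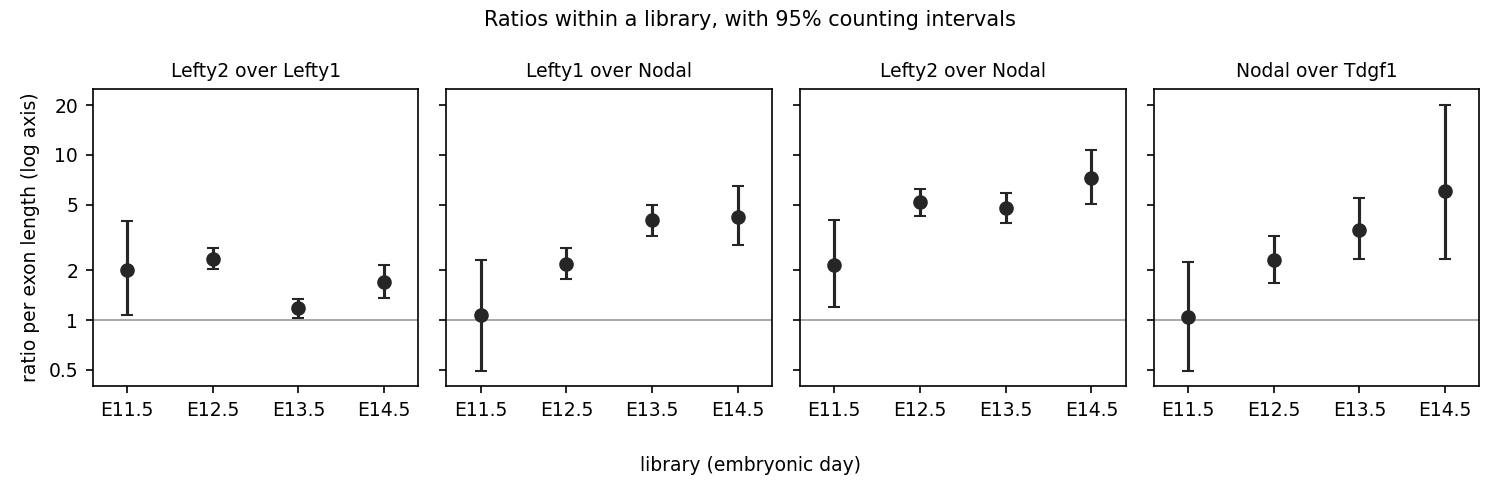
Ratios between the 4 genes within each library, per exon length, on a log axis, for E11.5 to E14.5. Points carry 95% counting intervals and the horizontal line marks equal levels; Lefty2 over Lefty1 is lowest at E13.5 (1.18), and Nodal over Tdgf1 goes from 1.04 at E11.5 to 6.07 at E14.5.

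The comparison of E12.5 with E11.5 spanned the time at which male and female gonads become distinct. All 4 of the 4 genes were called higher at E12.5, when 16.3% of the 20114 genes were called in either direction and 8.10% were called higher. Lefty2 was 20.9-fold higher (15.4 to 29.1) and Lefty1 17.8-fold higher (10.4 to 33.1). Nodal was 8.74-fold higher (5.26 to 15.4) and Tdgf1 3.93-fold higher (2.19 to 7.50). The change was thus larger in the inhibitors than in the co-receptor. The pan germ cell genes moved with them, and relative to the median of that list the log2 changes were -0.36 for Nodal, -1.51 for Tdgf1, 0.67 for Lefty1 and 0.90 for Lefty2. The earlier library alone held the mesonephros, and the part of either in these changes was not tested. Relative to Tdgf1, Lefty1 changed by 2.17 on the log2 scale (0.92 to 3.42) and Lefty2 by 2.41 (1.36 to 3.39). Relative to Lefty2, Nodal changed by -1.26 (-2.15 to -0.31), whereas relative to Lefty1 it changed by -1.02 with an interval that included 0 (-2.20 to 0.14). With edgeR's exact test at a preset biological coefficient of variation of 0.1 all 4 were also called, and at 0.4 only Lefty1 and Lefty2 were.

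From E12.5 to E13.5 Tdgf1 was called lower by 2.27-fold (1.43 to 3.68). It was 1 of 4 genes called, when 4.07% of all genes were called in either direction and 1.52% were called lower. Nodal changed by -0.58 on the log2 scale (-0.95 to -0.21) and Lefty2 by -0.70 (-0.85 to -0.55), and both stayed under 2-fold. Lefty1 changed by 0.30 (0.056 to 0.55), and this sign turned with the pan germ cell list as the library size (-0.14). Relative to the median of the pluripotency list the change of Tdgf1 was -0.71, under 2-fold. The exact test at a coefficient of variation of 0.1 called none of the 4.

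From E13.5 to E14.5 again Tdgf1 alone was called lower, by 2.85-fold (1.10 to 9.42), from 30 counts to 5. In this comparison 7.27% of all genes were called in either direction and 1.47% were called lower. Nodal changed by -0.73 on the log2 scale (-1.33 to -0.16), Lefty1 by -0.65 (-0.98 to -0.34) and Lefty2 by -0.12 (-0.33 to 0.087). Scaled by total counts the changes were -1.79 for Nodal, -1.72 for Lefty1, -1.18 for Lefty2 and -2.57 for Tdgf1, which are to be read against the -1.06 of the median gene. Relative to the median of the pluripotency list Tdgf1 changed by -0.82, again under 2-fold. None of the 4 was called by the exact test at a coefficient of variation of 0.1.

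Taken over both days, from E12.5 to E14.5, the ligand and the co-receptor were called lower on the TMM scale. This comparison was added after the data were seen, and it shares its libraries with the preceding ones. Of all genes, 10.4% were called in either direction and 2.46% were called lower. Nodal was 2.47-fold lower (1.68 to 3.73) and Tdgf1 6.48-fold lower (2.61 to 20.8). Lefty2 changed by -0.81 on the log2 scale (-1.02 to -0.62) and Lefty1 by -0.35 (-0.70 to -0.017). Relative to Lefty1, Nodal changed by -0.95 (-1.64 to -0.29), and relative to Lefty2 by -0.49 with an interval that included 0 (-1.12 to 0.11). Which genes passed 2-fold depended on the reference. Lefty1 was at -1.39 and Lefty2 at -1.85 by total counts, where the median gene was at -1.04, and Lefty2 was at -1.16 with the pan germ cell list as the library size. Relative to the median of the pluripotency list Nodal was at -0.25, Lefty1 at 0.71, Lefty2 at 0.25 and Tdgf1 at -1.64. Nodal and Tdgf1 were also called here by the exact test at a coefficient of variation of 0.1 and not at 0.4.

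**Figure D3:**
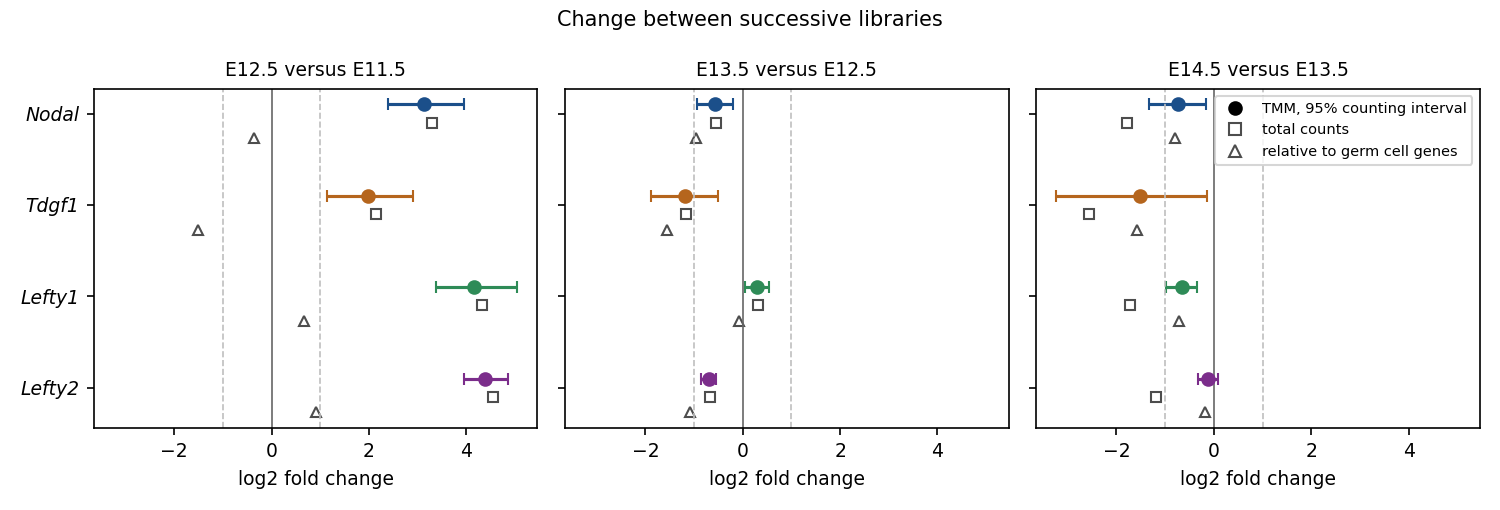
Log2 fold change of Nodal, Tdgf1, Lefty1 and Lefty2 between successive libraries. Filled circles are TMM-scaled changes with 95% counting intervals, open squares use total counts, open triangles set the median of the 8 pan germ cell genes to 0, and dashed lines mark 2-fold; at E12.5 the triangles of Nodal and Tdgf1 lie below 0 (-0.36 and -1.51) while the circles lie at 3.13 and 1.98.

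The other components of the pathway were read from lists of 31 genes, of which 28 passed the filter. At E12.5 against E11.5, 6 were called higher and 1 lower, and their median log2 fold change was 0.31 beside -0.0028 over all genes. Of all genes, 8.10% were called higher and 8.23% lower in that comparison. From E12.5 to E13.5, 0 were called higher and 1 lower, beside 2.55% and 1.52% of all genes. From E13.5 to E14.5, 1 was called higher and 2 lower, beside 5.80% and 1.47%. From E12.5 to E14.5, 2 were called higher and 3 lower, beside 7.97% and 2.46%. Most receptors, SMADs and SMAD inhibitors stayed within 2-fold in all of them.

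Among ligands and processing enzymes, Gdf3, a TGF-β family ligand that can also use the EGF-CFC co-receptor, had 16, 97, 100 and 31 counts from E11.5 to E14.5. It was called higher at E12.5 with a log2 fold change of 2.73 (1.96 to 3.59). Pcsk6, a proprotein convertase that cleaves the Nodal precursor, went from 907 to 3220 counts and was called higher as well, by 1.96 (1.85 to 2.06). Furin, the other convertase, changed by 0.40 and was not called. Gdf1, a partner of Nodal in the early embryo, had 0 counts in all 4 libraries.

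Of the receptors, none was called at E12.5. Acvr1b and Acvr2a, the type I and a type II receptor for Nodal and activin, changed by 0.14 and -0.23 on the log2 scale. Acvr2b, the other type II receptor, changed by -0.70, the lowest value of the receptors at E12.5. It had the most counts of the receptors and was lower in each step, with 170, 104, 84.3 and 62.8 CPM from E11.5 to E14.5. Acvr1c (ALK7), an alternative type I receptor, had 171, 210, 108 and 56 counts, or 4.99, 6.69, 2.73 and 2.98 CPM. It was called lower at E13.5, by -1.29 (-1.64 to -0.95). Cfc1, the second EGF-CFC co-receptor, had 2 counts at E13.5 and 0 in the other libraries, so Tdgf1 was the only EGF-CFC co-receptor with more than 3 counts.

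Foxh1, the transcription factor that brings activated SMADs to Nodal target genes, stood out among the transducers. It had 30, 332, 333 and 45 counts, or 0.875, 10.6, 8.41 and 2.39 CPM. It was called higher at E12.5 by 3.595 (3.05 to 4.19) and lower at E14.5 by -1.82 (-2.30 to -1.36), and it changed by -0.33 in between. The median change of the pan germ cell genes at E12.5 was 3.48. The part of germ cell number in the course of Foxh1 was not tested. Smad2, Smad3 and Smad4 changed by at most 0.36 in either direction in any of the 3 steps. Eomes, a T-box factor, had 20 counts at both E13.5 and E14.5 and was called higher at E14.5, by 1.07 on the TMM scale. Scaled by total counts, no pathway gene was called higher at E14.5 and 17 were called lower.

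None of the 10 inhibitor genes other than the Lefty genes was called in any of the 3 steps. Cer1, which encodes the secreted Nodal antagonist Cerberus, had 5, 12, 14 and 2 counts. Pmepa1 and Smad7, negative regulators that the pathway itself induces in many cell types, changed by 0.84 and 0.49 on the log2 scale at E12.5.

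Of the target genes, Otx2, a homeobox gene of the epiblast and the anterior neural plate, had 0 counts at E11.5 and 35 at E12.5, at least 12.7-fold higher when the E11.5 library is put at 3 counts. It then had 78 and 43 counts, or 1.97 and 2.28 CPM, and was called higher at E14.5 against E12.5. Foxa2 had 1 and 9 counts in the first comparison, a log2 ratio of 3.30 (0.45 to 8.75). Fgf8 was called lower at E12.5, with 29 and 7 counts. Gsc, a classical target in the gastrulating embryo, had 4 counts at most. Lhx1, which marks nephric tissue as well, had 209, 299, 215 and 197 counts, or 6.10, 9.53, 5.43 and 10.5 CPM, and was not called.

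**Figure D4:**
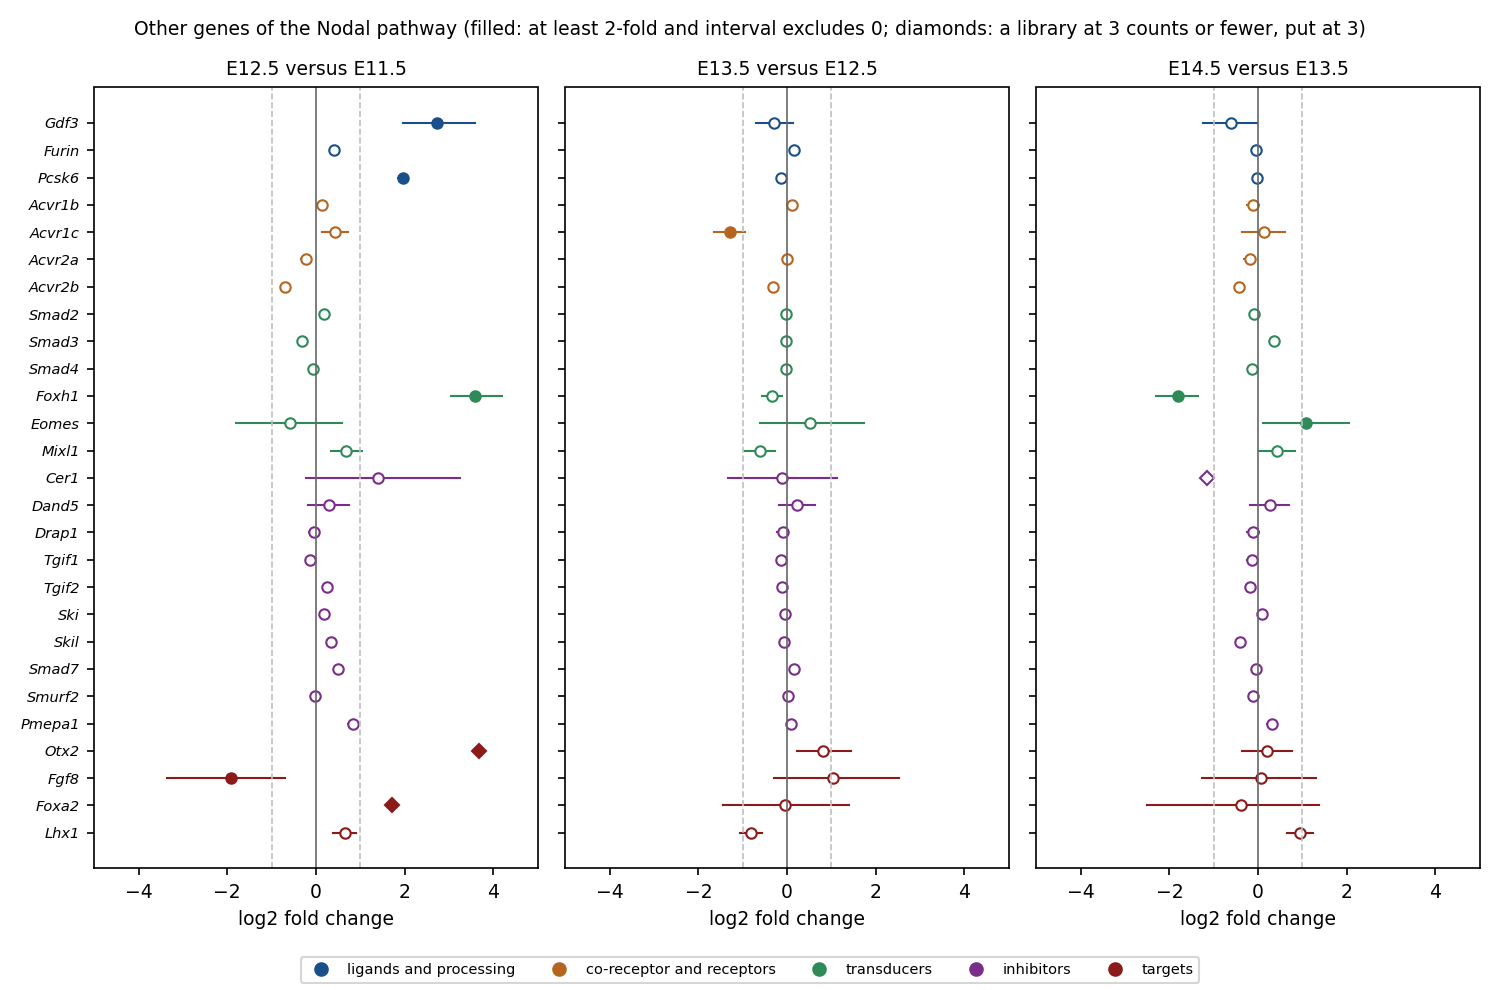
Log2 fold change between successive libraries for 27 of the 28 other pathway genes that passed the filter, coloured by role. Filled symbols are genes called higher or lower, lines are 95% counting intervals, diamonds are genes with 3 counts or fewer in a library, and dashed lines mark 2-fold; most points of every role lie near 0, while Foxh1 is at 3.595, -0.33 and -1.82 in the 3 comparisons.

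Activins signal through the same SMADs as Nodal. Inhba, Inhbb, Inha and Fst, which encode the activin and inhibin subunits and the activin antagonist follistatin, were all called higher at E12.5, beside 8.10% of all genes, with log2 fold changes of 1.60 to 2.73. Inhba had 38, 231, 796 and 734 counts, or 1.11, 7.36, 20.1 and 39.0 CPM. It was called higher again at E13.5, by 1.45 (1.24 to 1.67), and was the 1 gene of the 4 called in that step, beside 2.55% of all genes. At E14.5 no gene of the list was called against E13.5. Against E12.5, Inha and Inhba were called higher, beside 7.97% of all genes. No gene of this list was called lower in any comparison.

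The 4 genes were next set beside genes of the germ cells. The pluripotency genes of fetal germ cells were called higher at E12.5 in 8 of 8 cases, beside 8.10% of all genes, with a median of 2.68 on the log2 scale. Pou5f1 had 138, 1058, 1169 and 431 counts, and Nanog had 83, 477, 416 and 93. At E14.5 against E12.5, 5 of the 8 were called lower, beside 2.46% of all genes, among them Nanog at -1.62 (-1.96 to -1.30), where Nodal was at -1.31. Of 6 genes of XY germ cell differentiation, 4 were called higher at E12.5 (Piwil4, Piwil2, Mov10l1 and Tdrd1, which act in the piRNA pathway), 1 at E13.5 and 4 at E14.5, beside 8.10%, 2.55% and 5.80% of all genes. Piwil2 had 99 counts at E11.5 and 778 at E12.5, and Mov10l1 had 13 and 332. All 8 pan germ cell genes were called higher in that step too. Whether the 4 calls reflect XY differentiation or germ cells of both sexes was not tested. Nanos2, an RNA-binding protein that marks the male fate of germ cells, had 0, 0, 12 and 75 counts from E11.5 to E14.5. Its log2 fold change at E14.5 was 3.72 (2.83 to 4.73). Dnmt3l, a cofactor of de novo DNA methylation, had 0, 0, 2 and 29 counts. The list of XX germ cell and meiosis genes had 4 of 6 members called higher from E12.5 to E13.5, beside 2.55% of all genes. In the step before, 2 of the 6 were called higher, and in the step after, 3 of the 6, beside 8.10% and 5.80%. None of them was called lower. Stra8 of this list had 0, 3, 430 and 272 counts, and Sycp1 had 14, 121, 698 and 684. On the TMM scale both were higher at E14.5 than at E13.5, although their counts were lower. Stra8 went from 10.86 to 14.45 CPM and was not called in that step. Sycp1 went from 17.6 to 36.3 CPM and was called higher.

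Because Tdgf1, Nodal and the germ cell genes all changed at E12.5, the counts of each gene were divided by those of germ cell genes in the same library. Per 1000 counts of the 8 pan germ cell genes, Nodal had 26.9, 14.02, 6.94 and 4.45 from E11.5 to E14.5. Tdgf1 had 23.7, 5.57, 1.81 and 0.674. Relative to these genes, the intervals of Nodal at E11.5 (15.7 to 43.1) and E12.5 (11.8 to 16.6) overlapped, and those of Tdgf1 (13.3 to 39.1 and 4.18 to 7.26) did not. Lefty1 had 22.2, 23.5, 21.4 and 14.4, and Lefty2 had 68.0, 84.9, 38.7 and 37.9. Dazl made up a large share of the reference, with 53 counts at E11.5 and 4555 at E12.5. Without it the values at E12.5 were 26.4 for Nodal, 10.5 for Tdgf1, 44.3 for Lefty1 and 160 for Lefty2. At E11.5, leaving out any 1 gene of the list gave 27.1 to 35.4 for Nodal and 23.9 to 31.3 for Tdgf1. For Lefty1 it gave 22.3 to 29.2 and for Lefty2 68.5 to 89.6. The size of the step to E12.5 thus depended on Dazl.

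A single pluripotency gene gave a partly different picture. Per 1000 counts of Pou5f1, Nodal had 123, 129, 98.4 and 76.6 from E11.5 to E14.5, and Tdgf1 had 109, 51.0, 25.7 and 11.6. Lefty1 had 101, 216, 303 and 248, and Lefty2 had 312, 779, 548 and 652. Tdgf1 was lower on each following day with either reference, but the intervals from E13.5 to E14.5 overlapped with both references, and those from E11.5 to E12.5 overlapped per Pou5f1 (60.8 to 179 and 38.3 to 66.6). For Nodal from E11.5 to E12.5, Lefty1 from E12.5 to E13.5 and Lefty2 from E13.5 to E14.5, the values went in opposite directions with the 2 references. In that step of Nodal the intervals of the 2 days overlapped with both references, so that neither direction was resolved, and the same was so for Lefty2.

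**Figure D5:**
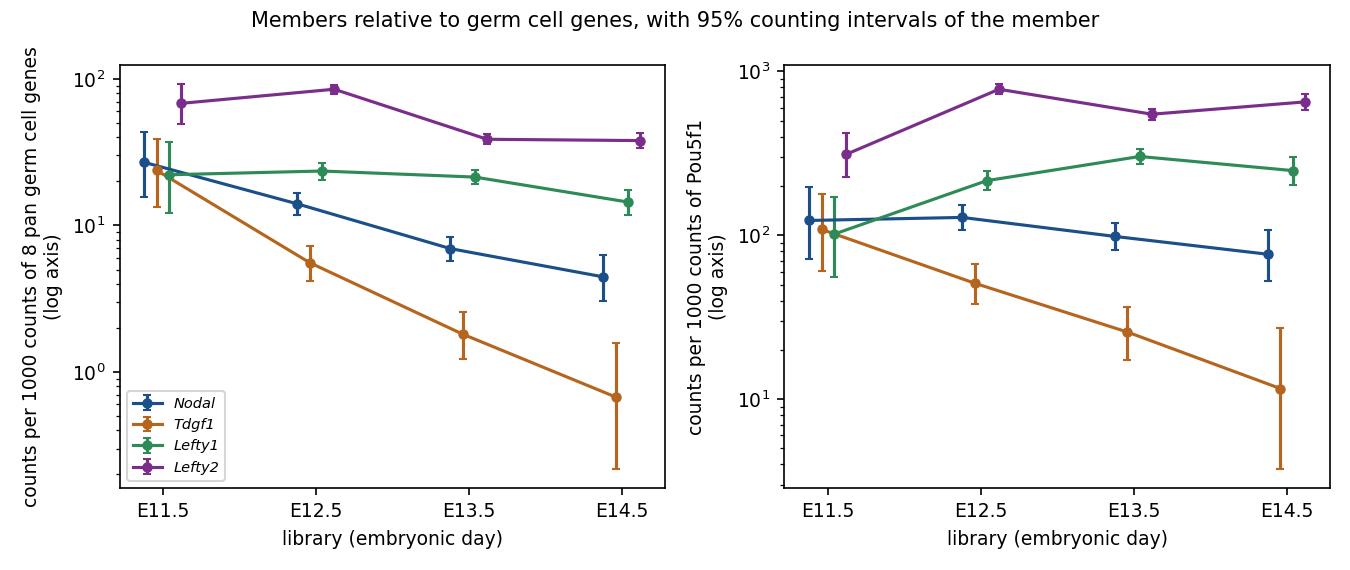
Counts of Nodal, Tdgf1, Lefty1 and Lefty2 per 1000 counts of 8 pan germ cell genes (left) and per 1000 counts of Pou5f1 (right) in the libraries of E11.5 to E14.5, on log axes with 95% counting intervals of the gene's own count. Tdgf1 is lower on each following day in both panels, from 23.7 to 0.674 and from 109 to 11.6, whereas Lefty1 stays between 14.4 and 23.5 on the left and reaches 303 at E13.5 on the right.

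For each gene the features with the most similar course were found among the 15786 features with at least 50 counts in their highest library, by the root mean square difference of their centred log2 levels over the 4 libraries. For Nodal these were Gstm3, Zfp42, LOC102632968, Kif19a and Igfbpl1, with differences of 0.048 to 0.11. Zfp42 (REX1), one of the 8 pluripotency genes, had 27, 161, 152 and 47 counts. For Lefty1 they were Sohlh2, Trank1, Dppa3, Rbm44 and Aldh1a7 (0.12 to 0.21), of which Sohlh2 and Dppa3 are on the pan germ cell list. For Lefty2 they were Col9a3, Prokr2, Gjb2, Tmem184a and Rtn4rl1 (0.20 to 0.30), and for Tdgf1 Gm6023, Dusp4, Nipal1, Sost and Gpr182 (0.075 to 0.11). The 4 genes themselves were less alike, with differences of 0.37 between Lefty1 and Lefty2, 0.58 between Nodal and Tdgf1, 0.66 between Nodal and Lefty1 and 0.75 between Nodal and Lefty2. The differences of Tdgf1 from the inhibitors were the largest, at 1.23 for Lefty1 and 1.32 for Lefty2. With 4 points per course, many features come close to any one of them. The 0.5 CPM added before the log was as large as Nodal (0.496 CPM) and Tdgf1 (0.438 CPM) at E11.5. It was larger than Tdgf1 at E14.5 (0.266 CPM). This shrinks the changes of these genes, so a similar course here does not mean an equal fold change.

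Regulatory sequence was available in the RefSeq promoter table (GRCm38.p6) for Nodal and Tdgf1, which held no entry for Lefty1 and Lefty2. The 250 bases before each start site are shown because FOXH1 and SMADs act at Nodal target genes and Foxh1 changed in these data. The letters TGTNNATT, the core of the FOXH1 motif, were searched on both strands, together with the SMAD letters CAGAC and GTCTAGAC, in the window from 250 bases before to 50 after the start. On the strand opposite to the gene, the Tdgf1 window held TGTNNATT at -127 and at -101, counted from the start site. These matches read AATTTACA in the sequence below, which is the strand of the gene. CAGAC lay between them at -113 on the strand of the gene. All are in capitals and without overlap. The Nodal window held none of the searched letters. Of 32851 windows of 300 bases, 12.2% held TGTNNATT, 49.6% held CAGAC and 0.213% held GTCTAGAC, and a match of letters is a description, not a site of binding.
Tdgf1, chr9:110946159-110946408, reverse strand: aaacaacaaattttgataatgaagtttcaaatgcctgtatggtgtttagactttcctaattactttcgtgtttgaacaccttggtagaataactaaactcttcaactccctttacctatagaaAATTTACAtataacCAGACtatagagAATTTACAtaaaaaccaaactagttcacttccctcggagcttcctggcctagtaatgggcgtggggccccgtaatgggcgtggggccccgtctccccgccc
Nodal, chr10:61417722-61417971, forward strand: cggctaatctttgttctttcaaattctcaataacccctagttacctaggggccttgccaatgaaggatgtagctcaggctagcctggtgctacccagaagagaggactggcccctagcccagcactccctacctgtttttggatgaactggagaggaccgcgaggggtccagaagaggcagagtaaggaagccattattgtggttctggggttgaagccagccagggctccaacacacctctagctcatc

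The libraries also held short RNAs, and miRNAs of the miR-290 and miR-302 clusters, which are typical of pluripotent cells, are known to target Lefty transcripts. Their members with the same seed (bases 2 to 8, in capitals) include the following, from RefSeq.
miR-294-3p, chr7:3220691-3220712, forward strand: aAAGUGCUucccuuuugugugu
miR-291a-3p, chr7:3218968-3218989, forward strand: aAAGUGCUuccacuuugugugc
miR-302b-3p, chr3:127545275-127545297, forward strand: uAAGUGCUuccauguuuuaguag
The complement of this seed (capitals) occurred once in the 3′ UTR of each Lefty transcript and in no part of the Nodal and Tdgf1 transcripts, in GENCODE M21.
Lefty1, chr1:180938205-180938227: gtatgcgaAGCACTTacatgtat
Lefty2, chr1:180897909-180897931: ccagtttaAGCACTTacatgggt
Of 19193 mouse 3′ UTRs, 12.3% held the same letters. Both clusters were near the limit of detection. The 26 listed miRNAs had 6, 8, 9 and 4 counts in all from E11.5 to E14.5, and miR-294-3p had 1, 3, 1 and 4. No change of these miRNAs could be read at this depth.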

How the data were processed

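Total RNA of 1 pool of C57BL/6J gonads per embryonic day was sequenced, and samples were assigned to days by their titles. The authors depleted ribosomal RNA with probes and RNase H and mapped the reads with STAR (mm10). UMI-tools collapsed duplicates, and featureCounts gave the count of each gene. Deposited counts were used as given. The TPM were made by the authors from these counts and exon lengths and matched a recalculation. The deposited RPKM were not used. Versions, the annotation and the treatment of multi-mapping reads are not given in the sources used here.

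Features kept by edgeR's filterByExpr over the 4 libraries were scaled by TMM. Fold changes carry exact Clopper-Pearson 95% intervals of the later library's share of counts, levels carry exact Poisson intervals, and a library at 3 counts or fewer was put at 3 for calls. The folds printed for genes with 1 to 3 counts are the plain ratios. A gene was called at a log2 fold change of at least 1 in size with an interval that excluded 0. No test between days was possible, and edgeR's exact test at a preset biological coefficient of variation of 0.1 or 0.4 (adjusted p of at most 0.05) served as an alternative. Scripts were checked on simulated counts. The course of a gene was log2(CPM + 0.5), centred. R 4.3.3, edgeR 4.0.16, DESeq2 1.42.0, Python 3.11.15, pandas 2.3.3 and scipy 1.17.1 were used.

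Named genes were the 4 members, genes of the lists and the 5 features most like each member. The members and lists were chosen with earlier results of these data known. Alternatives were other size factors, total counts, total counts less rRNA and the 10 most abundant features, germ cell genes as reference, TPM ratios, a prior count of 2 and other filters and thresholds. The medians of the germ cell lists as reference and the comparison of E14.5 with E12.5 were added after the data were seen. A single gene of the pathway lists is counted in them and is not reported here.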

Additional observations from a re-analysis of the deposited data

How the results depend on the processing

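Each day is 1 library, so no replicate could be left out. No paired analysis was possible because each group has 1 sample. With germ cell genes as the library size, the log2 changes at E12.5 were -0.94 for Nodal, 0.085 for Lefty1, 0.32 for Lefty2 and -2.09 for Tdgf1. Relative to the median of the pan germ cell list they were -0.36, 0.67, 0.90 and -1.51, and relative to that of the pluripotency list 0.45, 1.48, 1.71 and -0.70. At E13.5 the same references gave Nodal -1.01, -0.96 and -0.10, Lefty1 -0.14, -0.082 and 0.77, Lefty2 -1.13, -1.08 and -0.22, and Tdgf1 -1.62, -1.56 and -0.71. At E14.5 against E13.5 the pluripotency list gave -0.038 for Nodal, 0.037 for Lefty1, 0.57 for Lefty2 and -0.82 for Tdgf1. Total counts gave -1.79, -1.72 and -1.18, and the ratio of the deposited TPM -2.35, -2.27 and -1.74. By construction the germ cell references subtract the change of the germ cell genes, whereas total counts and TPM keep the shift of the median gene.

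Genes called numbered 3285, 818 and 1462 in the 3 successive comparisons. They numbered 1288, 159 and 451 at a log2 change of at least 2, and 283, 1 and 31 by the exact test at a coefficient of variation of 0.4. At 0.1 it called 366 genes at E13.5 and 941 genes at E14.5, and at least 10 counts in both libraries left 493 at E13.5. Total counts gave 11698 at E14.5, of which 301 were higher and 11397 lower, against 1167 and 295. Pathway genes called numbered 7, 1 and 3. They numbered 3, 0 and 0 at the larger fold, 2, 0 and 0 by the exact test at 0.4, 4 at E12.5 with at least 10 counts in both libraries, and 17 at E14.5 by total counts. Without Dazl, the levels per 1000 pan germ cell counts from E12.5 to E14.5 were 26.4, 13.8 and 7.58 for Nodal, 44.3, 42.4 and 24.6 for Lefty1 and 160, 76.9 and 64.6 for Lefty2, and those of Tdgf1 at E12.5 and E13.5 were 10.5 and 3.597. The causes were not tested. Intervals cover counting error only, and the 5 counts of Tdgf1 at E14.5 limit every value that rests on them.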
